A study of Mus musculus with 15 samples.

Results

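The proteasome genes of mouse Abelson pre-B cell lines were described from RNA sequencing of 15 libraries. Members were the genes in the union of 4 deposited tables whose symbol starts with Psm, a letter from a to g and a digit. The name rule found 48 of 11551 genes. One of them, Psmc3ip, is a recombination factor that shares only the name, so 47 genes were described: 14 genes of the constitutive core rings, 17 of the regulatory cap, the immune catalytic subunits Psmb8 and Psmb10, the testis-type subunit Psma8, 5 activator genes, the inhibitor Psmf1, 4 chaperones of the core and 3 chaperones of the cap. Psmb9 and Psmb11 were not analysed here. Every gene of the union had passed the authors' adjusted p in at least 1 of their tables, so a high share of changed genes is built into the union.

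The libraries fell into 5 groups of 3. Art_shBCLAF1 and Art are Artemis-deficient (Art -/-) Abelson cells with a short hairpin against BCLAF1 and without one. Rag_SPIC_tet_DOX_shBCLAF1, Rag_SPIC_tet_DOX and Rag_SPIC_tet_NoDOX are Rag-deficient (Rag -/-) Abelson cells with a construct named SPIC_tet: with DOX and that hairpin, with DOX alone, and without DOX. The last 3 names are shortened below to DOX_shBCLAF1, DOX and NoDOX. Abelson cells are B-cell precursors transformed by a viral Abl kinase, and all cultures, at passages 10 to 15, had received 48 h of imatinib, an inhibitor of that kinase. No label names a control hairpin, a promoter for the construct or the number of clones. Art cells differ from NoDOX cells in the deleted gene and in the construct, so these cannot be told apart.

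The proteasome degrades proteins that carry ubiquitin. Its core particle is a stack of rings, in which outer alpha subunits gate the entrance and inner beta subunits cut the chain, and a cap with ATPases binds, unfolds and feeds in the substrate. In lymphoid cells and after interferon, the catalytic subunits Psmb5, Psmb6 and Psmb7 can be replaced by Psmb8, Psmb9 and Psmb10, which changes the peptides offered on class I molecules. Subunit genes are known to be induced together by the factor Nfe2l1 when proteasome capacity falls short.

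Values are log2 CPM, reads scaled to the effective library size (its reads after normalization) and put on a log2 scale, as deposited. The effective library size was 1.72e+07 to 2.71e+07 reads in 14 libraries and 5.81e+06 reads in Art replicate 3. That library stood apart: over the 47 genes its root-mean-square log2 difference from Art replicates 1 and 2 was 0.97 for each, against 0.14 between these replicates. It was over 0.5 log2 above their mean in 18 of the 47 genes and over 0.5 below in 9, and this difference followed transcript GC content (Spearman's rho 0.71 over 47 genes, 0.64 over 11521 genes of the union, points that share 1 library). The counts over the 47 genes in each comparison with Art are therefore given with and without it. Single genes and lists are given without it only where stated. Bclaf1, which the hairpin is directed at, was not lower in the libraries labelled shBCLAF1: it had 8.29, 8.35 and 8.32 log2 CPM in Art_shBCLAF1 and 7.81, 7.75 and 6.41 in Art, and 7.99, 8.05 and 8.10 in DOX_shBCLAF1 and 7.76, 7.69 and 7.73 in DOX. Marker genes were counted as risen or fallen at limma's adjusted p below 0.05. Of all genes, 25.0% rose and 24.1% fell in Art_shBCLAF1 against Art (40.6% and 39.5% without Art replicate 3). In DOX_shBCLAF1 against DOX 28.5% of all genes rose and 25.1% fell. All 10 pre-B markers listed were measured. In Art_shBCLAF1 against Art 7 of them fell and 0 rose (8 and 1 without Art replicate 3), and their summed level was 5684 to 6199 CPM in Art_shBCLAF1 and 8977 to 12325 in Art. In DOX_shBCLAF1 against DOX 3 rose and 2 fell. Of 5 measured plasma cell markers 1 rose and 3 fell in Art_shBCLAF1, and 2 rose and 2 fell in DOX_shBCLAF1. The summed level of 6 measured myeloid markers was 27.7 to 44.1 CPM in Art_shBCLAF1, 672 to 906 in Art, 37.2 to 40.1 in DOX_shBCLAF1, 182 to 265 in DOX and 282 to 298 in NoDOX. In DOX_shBCLAF1 all 6 fell; in Art_shBCLAF1 1 rose and 2 fell, and the gap in the sum was mostly that of Itgam, at a mean of 4.65 log2 CPM in Art_shBCLAF1 and 9.65 in Art. Of the defining markers of T and NK cells, erythroid cells and fibroblasts, Cd3e, Hba-a1 and Col1a1 were not analysed here. The measured T and NK markers (3 of 10 listed) summed to 21.4 to 25.3 CPM in Art_shBCLAF1, 114 to 122 in Art, 33.1 to 36.0 in DOX_shBCLAF1 and 45.3 to 54.9 in DOX. The erythroid ones (2 of 8) summed to 16.9 to 21.4 CPM in Art_shBCLAF1, 0.348 to 1.2 in Art, 8.29 to 9.67 in DOX_shBCLAF1 and 1.04 to 5.91 in DOX. The fibroblast one, Thy1 (1 of 6), had 33.6 to 43.9 CPM in Art_shBCLAF1, 20.1 to 40.7 in Art, 17.5 to 20.2 in DOX_shBCLAF1 and 33.2 to 50.1 in DOX. The part of these marker genes in the results was not tested. In bulk libraries, fewer cells of a type and less RNA per cell cannot be told apart.

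Of the 31 genes of the core rings and the cap, most had their highest group mean in a group labelled shBCLAF1. For each library the median over the 31 genes of log2 CPM minus the NoDOX mean was taken. This median was 1.05, 0.80 and 0.88 in Art_shBCLAF1 and -0.14, -0.07 and 0.16 in Art. It was 0.72, 0.69 and 0.61 in DOX_shBCLAF1, 0.58, 0.11 and 0.30 in DOX and -0.04, 0.04 and 0.02 in NoDOX. Every Art_shBCLAF1 library lay above every DOX_shBCLAF1 library, each of these above every DOX library, and the Art and NoDOX libraries overlapped around 0. Summed over the 31 genes, the transcripts made up 4202 ± 321 CPM in Art_shBCLAF1 against 2654 ± 656 CPM in Art (SD, n = 3 each). The sum was 3784 ± 79.5 CPM in DOX_shBCLAF1, 3058 ± 425 CPM in DOX and 2526 ± 46 CPM in NoDOX. By gene, the highest group mean was in Art_shBCLAF1 for 22 of the 31 genes and in DOX_shBCLAF1 for 7, and the lowest was in Art for 17 and in NoDOX for 14. These counts were not taken over all genes, so how particular they are to the 31 genes is not known.

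**Figure D1:**
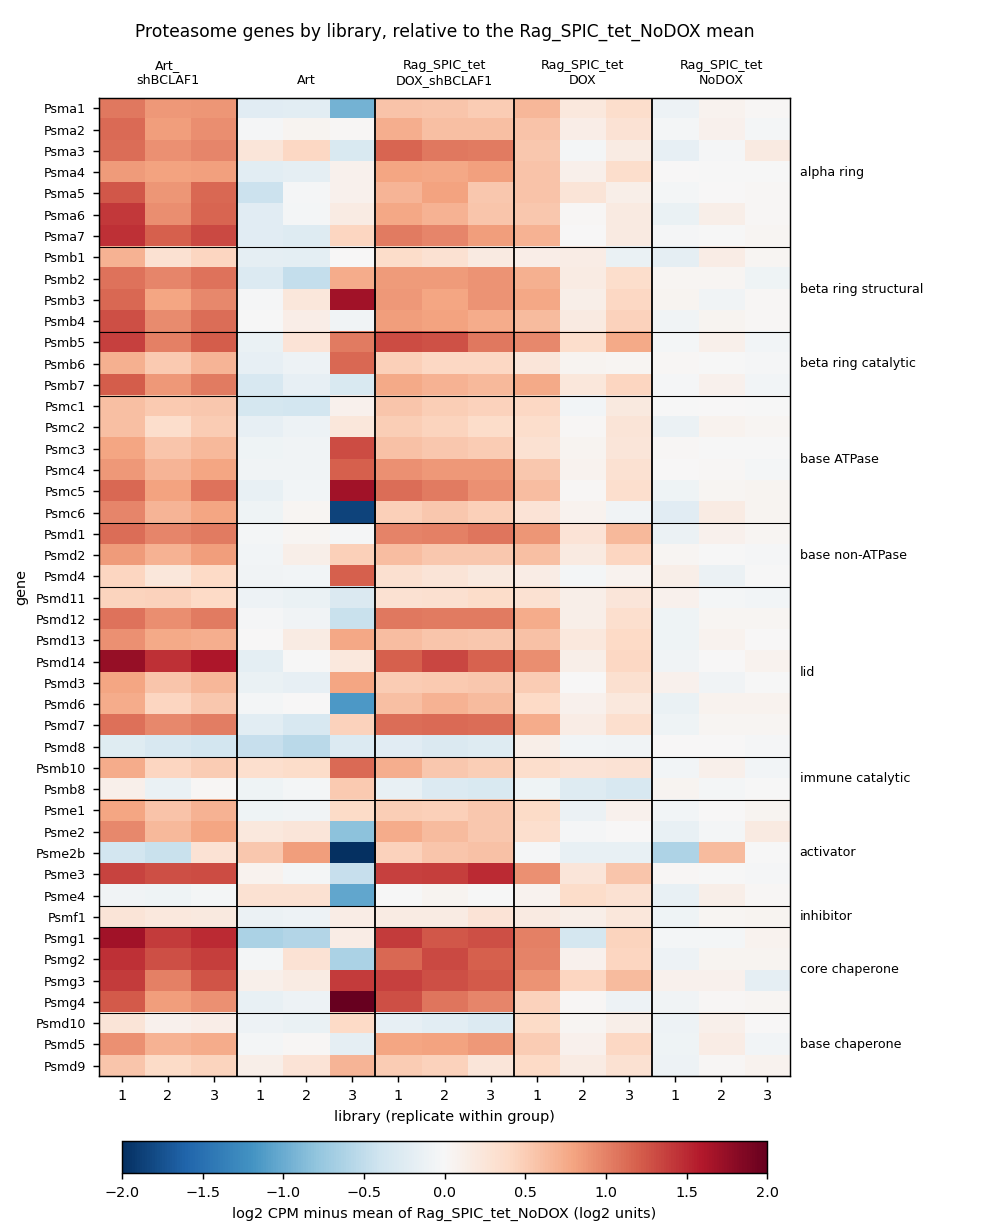
Log2 CPM of 46 proteasome genes (rows, grouped by role; Psma8 is plotted by reads instead) in each of 15 libraries (columns), minus the gene's mean in the 3 Rag_SPIC_tet_NoDOX libraries, with colours held at 2 log2 units either way. Core and cap genes are high in the Art_shBCLAF1 and DOX_shBCLAF1 libraries, Psmb8 and Psmd8 are near or below 0 there, and Art replicate 3 differs from Art replicates 1 and 2 in single genes in both directions.

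Within the Artemis-deficient cells, 26 of the 47 genes rose in Art_shBCLAF1 against Art and 1, Psma8, fell at an adjusted p below 0.05. Of all 11551 genes 25.0% rose and 24.1% fell in that comparison, 49.0% in all, and the median log2 fold change was 0.66 over the 47 genes and 0.05 over all genes. Without Art replicate 3, 42 of the 47 rose, all 31 core and cap genes among them, and 3 fell (Psma8, Psme2b and Psme4), against 40.6% and 39.5% of all genes. The values depend on the scaling: centring each library on the median of the union lowered every log2 fold change of this comparison by 0.23, and 19 genes rose and 1 fell. That scaling put the median of all genes at -0.18, with 18.7% of all genes rising and 31.2% falling, and turned Psmd8, Psmd9, Psmd10, Psme2b and Psme4 negative with none of these 5 called. The groups did not overlap, with Art_shBCLAF1 higher, in 28 of the 47 genes (33.9% of all genes), and with Art_shBCLAF1 lower in 1 (31.7% of all genes).

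All 7 alpha ring genes rose in Art_shBCLAF1, by 0.89 (Psma3) to 1.40 (Psma1) on the log2 scale. Psma1, an outer-ring subunit, had 7.35, 7.17 and 7.18 log2 CPM in Art_shBCLAF1 against 6.07, 6.09 and 5.35 in Art. The log2 fold change with its SE was 1.40 ± 0.22 (adjusted p = 0.00311), and every Art_shBCLAF1 library was above every Art library. Psma3 had 4.55, 4.34 and 4.40 log2 CPM in Art_shBCLAF1 and 3.67, 3.84 and 3.12 in Art, a change of 0.89 ± 0.21 (adjusted p = 0.0153). Its Art_shBCLAF1 libraries were likewise all above its Art libraries. Of the 4 structural beta genes, 3 rose; Psmb4 had the highest change, 1.09 ± 0.14 (adjusted p = 0.00126). Psmb3 had the lowest, 0.34 ± 0.44 (adjusted p = 0.56), with 5.48, 5.12 and 5.29 log2 CPM in Art_shBCLAF1 and 4.30, 4.56 and 6.01 in Art, where replicate 3 was above all Art_shBCLAF1 libraries; without that replicate the change was 0.87 (adjusted p = 3.3e-05).

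In the cap, 9 of 17 genes rose in Art_shBCLAF1 and none fell, and all 17 rose without Art replicate 3. The lid gene Psmd14, the deubiquitinase that strips ubiquitin from bound substrates, had 6.70, 6.41 and 6.58 log2 CPM in Art_shBCLAF1 against 4.76, 4.94 and 5.16 in Art. Its log2 fold change of 1.60 ± 0.15 (3.04-fold, adjusted p = 0.000497) was the highest of the 31 core and cap genes, and the 2 groups were apart by over 1 log2 unit. Psmd8 had the lowest change of the 8 lid genes, 0.12 ± 0.12 (adjusted p = 0.448), with 7.97, 7.89 and 7.84 log2 CPM in Art_shBCLAF1 and 7.74, 7.67 and 7.94 in Art. Of the 6 ATPase genes 2 rose, Psmc1 by 0.77 and Psmc2 by 0.49. Psmc6 had the highest ATPase estimate, 1.45 ± 0.50, but did not pass (adjusted p = 0.0524): it had 7.04, 6.74 and 6.85 log2 CPM in Art_shBCLAF1 against 5.98, 6.10 and 4.21 in Art, where replicate 3 was the lowest. Psmc3 had the lowest, 0.28 ± 0.38, with replicate 3 the highest Art library at 8.11 log2 CPM. Among the non-ATPase genes of the base, the scaffold gene Psmd1 rose by 1.05 ± 0.10 (adjusted p = 0.000561). The ubiquitin receptor gene Psmd4 was at -0.01 ± 0.35 with replicate 3 and at 0.41 without it (adjusted p = 0.000222); the authors' deposited table gives 0.44 for it in the same direction.

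Within the Rag-deficient cells under DOX, 26 of the 47 genes also rose in DOX_shBCLAF1 against DOX, and 3 fell: Psma8, Psmd8 and Psmd10. Of all genes 28.5% rose and 25.1% fell, 53.6% in all, and the median log2 fold change was 0.39 over the 47 genes and 0.05 over all genes. Centring on the library median lowered every log2 fold change of this comparison by 0.10, and 24 genes then rose, with 22.8% of all genes rising and 27.8% falling. The groups did not overlap in 34 genes with DOX_shBCLAF1 higher and in 4 with it lower, where 35.5% and 30.6% of all genes did so. The number called moved with single libraries. It was 42 without DOX replicate 1 (36.1% of all genes rose and 29.5% fell) and 17 without DOX replicate 3 (18.8% and 18.8%). It was 15 without DOX_shBCLAF1 replicate 1 (18.2% and 18.4%), 14 without replicate 2 (16.9% and 17.2%) and 16 without replicate 3 (17.6% and 17.7%). Of the 26 calls upward, 14 were kept without DOX replicate 3, and 14, 13 and 15 without DOX_shBCLAF1 replicates 1, 2 and 3.

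Of the 14 ring genes 8 rose, and of the 17 cap genes 8 rose and 1 fell. Psma3 had the highest ring change: 4.60, 4.49 and 4.47 log2 CPM in DOX_shBCLAF1 against 3.97, 3.39 and 3.60 in DOX, a difference of 0.86 ± 0.15 (adjusted p = 0.00488). Psma1 had the lowest of the alpha genes, 0.13 ± 0.12 (adjusted p = 0.37), with 6.87, 6.85 and 6.80 log2 CPM in DOX_shBCLAF1 and 6.97, 6.52 and 6.65 in DOX, where replicate 1 was the highest of the 6 libraries. The groups therefore overlapped in Psma1 and not in Psma3. Psmb2 had the highest structural beta change, 0.45 ± 0.13 (adjusted p = 0.0284), and Psmb1 the lowest, 0.23 ± 0.10 (adjusted p = 0.0846). In the base, the ATPase gene Psmc5 rose by 0.71 ± 0.15 (adjusted p = 0.00925), and Psmc2 was at 0.22 ± 0.09 (adjusted p = 0.0874). None of the 3 non-ATPase base genes passed; Psmd1 was at 0.42 ± 0.15 and Psmd2 at 0.16 ± 0.11.

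Psmd14 again led the lid. It had 6.16, 6.29 and 6.13 log2 CPM in DOX_shBCLAF1 against 5.88, 5.07 and 5.37 in DOX, a log2 fold change of 0.76 ± 0.20 (adjusted p = 0.018). The Psmd14 call was lost without DOX replicate 3 and without any 1 of the DOX_shBCLAF1 libraries. Psmd8, a lid subunit, went the other way, with 7.97, 7.91 and 7.95 log2 CPM in DOX_shBCLAF1 and 8.32, 8.15 and 8.14 in DOX, and fell by 0.26 ± 0.07 on the log2 scale (adjusted p = 0.0206). With all libraries it was the 1 core or cap gene to fall in any of the 4 comparisons. Without Art replicate 3, 9 of the 47 genes fell in Art against NoDOX (24.2% of all genes). The Psmd8 call in DOX_shBCLAF1 was lost when any 1 of the DOX_shBCLAF1 libraries was left out. Every NoDOX library, at 8.21, 8.22 and 8.18 log2 CPM, was also above every DOX_shBCLAF1 library.

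**Figure D2:**
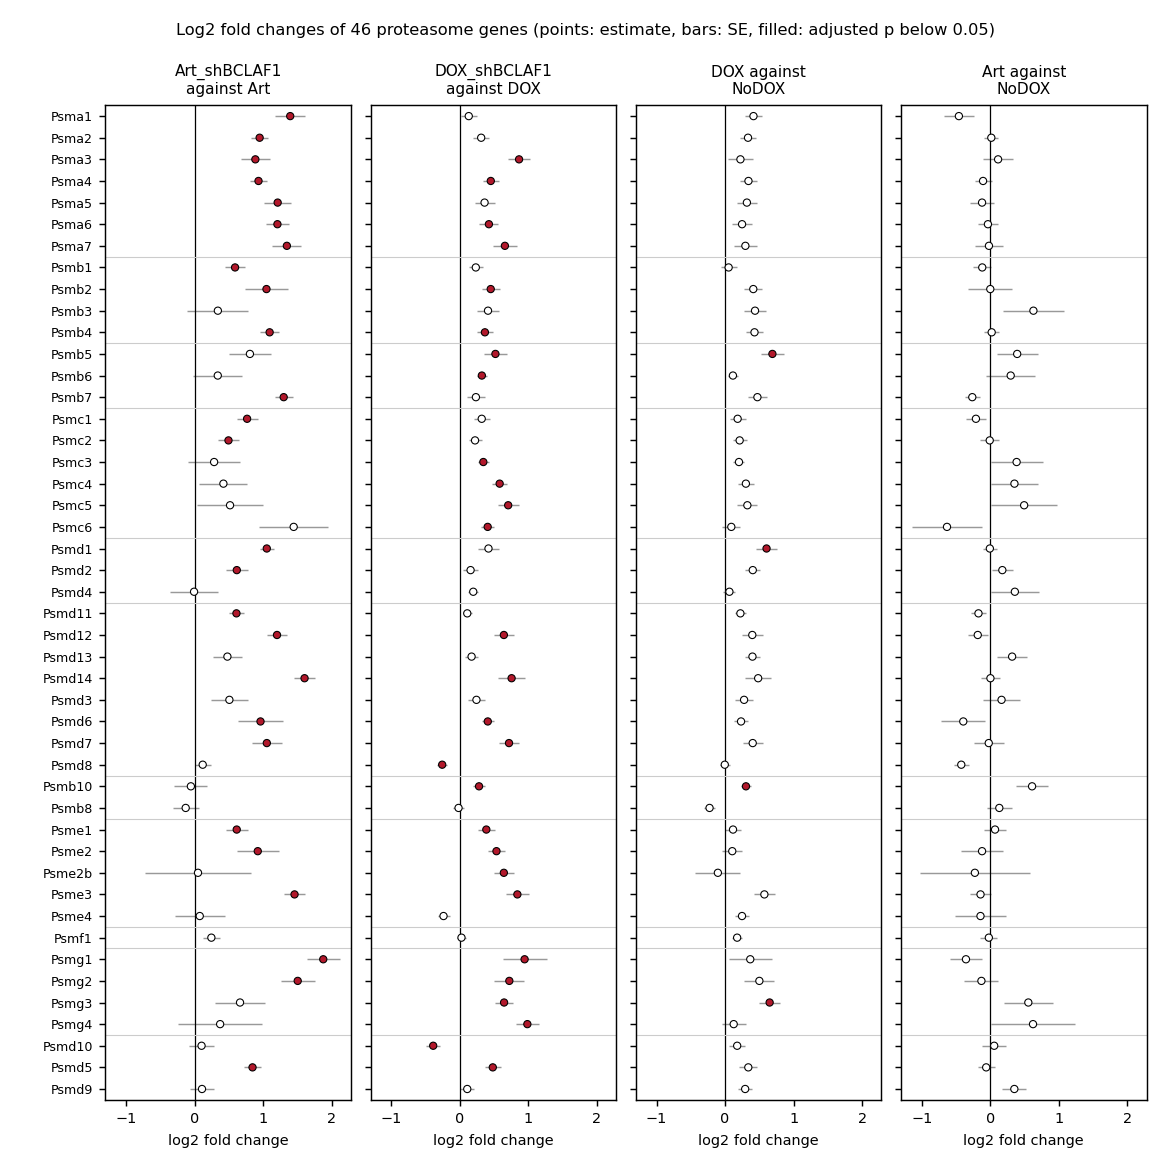
Log2 fold change (x axis, point, with its standard error as a bar) of 46 proteasome genes (y axis, grouped by role as in the map of genes by library) in 4 comparisons of 3 libraries against 3; filled points had an adjusted p below 0.05. Most core, cap and core-chaperone genes lie right of 0 in both shBCLAF1 comparisons, with wider bars where Art enters, and none is filled in Art against NoDOX.

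The difference between the hairpin-label effects was tested with an interaction term over 12 libraries. The effect in Art minus that in DOX was positive in 9 of the 47 genes at an adjusted p below 0.05 and negative in 0, where 14.3% of all genes were positive and 17.0% negative, 31.3% in all. All 9 are core or cap genes: Psma1, Psma2, Psma5 and Psma6 of the outer ring, Psmb4 and Psmb7 of the inner ring, and Psmd1, Psmd11 and Psmd14 of the cap. Psma1 had the largest difference, 1.27 ± 0.26 (adjusted p = 0.00491), followed by Psmb7, 1.07 ± 0.20 (adjusted p = 0.0024). Without Art replicate 3 the difference was positive in 26 genes and negative in 1, where 26.6% and 27.8% of all genes were. Without DOX replicate 2 it was positive in 17 and negative in 0 (17.6% and 17.7% of all genes). It was positive in 4 and negative in 0 without Art_shBCLAF1 replicate 1 (9.99% and 13.2%), and positive in 5 and negative in 0 without replicate 3 (10.3% and 13.6%). Centring lowered every difference by 0.13 and left 9 positive. In the other classes the highest and lowest estimates were Psmc6 (1.04) and Psmc5 (-0.19) among the ATPase genes, Psmg1 (0.93) and Psmg4 (-0.61) among the core chaperones, and Psmd10 (0.49) and Psmd9 (-0.00) among the cap chaperones, none of which passed.

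With DOX alone few genes passed. In DOX against NoDOX 4 of the 47 genes rose and 0 fell, and 24 had an unadjusted p below 0.05 (34.2% of all genes had); of all genes 3.16% rose and 8.67% fell, 11.8% in all. The 4 were Psmb5 (0.69 ± 0.17, adjusted p = 0.0431), the core chaperone Psmg3 (0.65 ± 0.15, adjusted p = 0.0363), Psmd1 (0.60 ± 0.15, adjusted p = 0.0434) and Psmb10 (0.30 ± 0.08, adjusted p = 0.0499). Psmd1 had 7.49, 6.88 and 7.25 log2 CPM in DOX against 6.48, 6.68 and 6.64 in NoDOX, with no overlap. The groups did not overlap in 26 genes with DOX higher (18.0% of all genes) and in 1, Psmb8, with DOX lower (22.7% of all genes). The median log2 fold change was 0.30 over the 47 genes and 0.00 over all genes. By class the lowest and highest estimates were Psma3 (0.22) and Psma1 (0.41) in the outer ring, Psmb1 (0.05) and Psmb3 (0.44) among the structural beta genes, and Psmc6 (0.09) and Psmc5 (0.33) among the ATPase genes. They were Psmd4 (0.06) and Psmd1 in the rest of the base, Psmd8 (0.00) and Psmd14 (0.48) in the lid, Psmg4 (0.13) and Psmg3 among the core chaperones, and Psmd10 (0.18) and Psmd5 (0.34) among the cap chaperones.

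The DOX libraries differed among themselves in the same genes. Replicate 1 was the highest of the 3 in 30 of the 31 core and cap genes, and in 26 of them the order was replicate 1, then 3, then 2. Of all 11551 genes, replicate 1 was the highest in 43.6% and this order held in 33.5%. The median log2 CPM of the union had the same order, 5.29 in replicate 1, 5.16 in replicate 3 and 5.12 in replicate 2. Without replicate 2, 31 of the 47 genes rose in DOX against NoDOX and 0 fell (20.0% and 19.6% of all genes), and without replicate 1, 5 rose and 1 fell (4.33% and 9.84%). Without replicate 3, 0 changed (0.0260% of all genes rose and 0.476% fell). Nor did any without NoDOX replicate 1 (0.00866% and 0.0952%), 2 (0.303% and 3.17%) or 3 (0.0173% and 0.113%). DOX group means lay between those of NoDOX and DOX_shBCLAF1 in 30 of the 31 genes, but both comparisons use the DOX libraries and are not independent. The share of all genes with DOX between the other groups was not taken. Myc, which encodes a growth factor-responsive transcription factor, had 8.06, 3.76 and 6.83 log2 CPM in the DOX libraries, in the same order as the subunit genes. Across groups it had 8.89, 8.68 and 8.79 log2 CPM in Art_shBCLAF1, 3.87, 4.08 and 4.26 in Art, 9.13, 9.20 and 9.29 in DOX_shBCLAF1 and 5.77, 5.41 and 5.60 in NoDOX. Its part in the results was not tested. Spic had 4.47, 4.34 and 4.80 log2 CPM in Art_shBCLAF1 and 0.85, 0.32 and 0.16 in Art. In the Rag-deficient cells it had 7.50, 7.43 and 7.44 in DOX_shBCLAF1, 3.72, 4.59 and 4.31 in DOX and 0.87, 0.18 and 1.41 in NoDOX. Over the DOX libraries the order of Spic was replicate 2, then 3, then 1. The part of Spic in the results was not tested.

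**Figure D3:**
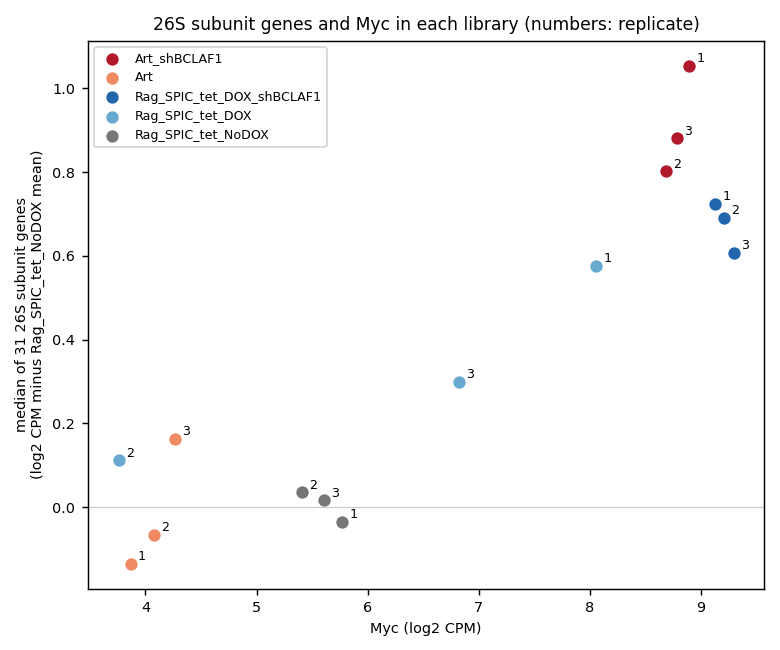
Median over 31 core and cap genes of log2 CPM minus the Rag_SPIC_tet_NoDOX mean (y axis) against Myc log2 CPM (x axis) in each of 15 libraries, with replicate numbers beside the points. The 3 DOX libraries spread along both axes, the 6 libraries labelled shBCLAF1 lie at 0.61 or above and the Art and NoDOX libraries at 0.16 or below.

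Art against NoDOX, which shares its Art libraries with the first comparison and its NoDOX libraries with the last, gave no call: 0 of the 47 genes passed limma's adjusted p of 0.05, and 3 had an unadjusted p below 0.05 (21.7% of all genes had), where 2.58% of all genes rose and 2.56% fell, 5.14% in all. The median log2 fold change was -0.01 over the 47 genes and -0.03 over all genes. The groups did not overlap with Art higher in 3 genes (18.4% of all genes) and with Art lower in 4 (19.4%). Without Art replicate 3, 4 genes rose and 9 fell (23.2% and 24.2% of all genes). Psmb3 had the highest estimate of the core and cap, 0.63 ± 0.44 (adjusted p = 0.454), and Psmc6 the lowest, -0.63 ± 0.51 (adjusted p = 0.508), both with replicate 3 the outlying Art library. Psmd8 had 7.74, 7.67 and 7.94 log2 CPM in Art against 8.21, 8.22 and 8.18 in NoDOX, all 3 Art libraries lower, a change of -0.42 ± 0.11 (adjusted p = 0.0915). Elsewhere the lowest and highest estimates were Psma1 (-0.46) and Psma3 (0.11) in the outer ring, Psmb1 (-0.12) among the structural beta genes, and Psmc5 (0.49) among the ATPase genes. They were Psmd1 (-0.01) and Psmd4 (0.36) in the rest of the base, Psmd13 (0.32) at the top of the lid, Psmg1 (-0.36) and Psmg4 (0.62) among the core chaperones, and Psmd5 (-0.06) and Psmd9 (0.35) among the cap chaperones.

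Of the 3 constitutive catalytic genes, Psmb7 rose in Art_shBCLAF1 against Art, all 3 did so without Art replicate 3, and Psmb5 and Psmb6 rose in DOX_shBCLAF1 against DOX. Psmb5, the chymotrypsin-like subunit, had 4.58, 4.22 and 4.43 log2 CPM in Art_shBCLAF1 and 3.08, 3.49 and 4.25 in Art, a change of 0.81 ± 0.31 that did not pass (adjusted p = 0.0703); replicate 3 was the highest Art library, and without it the change was 1.13 (adjusted p = 2.49e-05). In the Rag-deficient cells it had 4.52, 4.48 and 4.27 in DOX_shBCLAF1, 4.17, 3.57 and 3.97 in DOX and 3.17, 3.31 and 3.15 in NoDOX, and rose by 0.52 ± 0.17 in DOX_shBCLAF1 against DOX (adjusted p = 0.0377). That call was lost without DOX replicate 3, without any 1 of the DOX_shBCLAF1 libraries and in 1 fit of all 15 libraries. A block for replicate number also lost it. No NoDOX library reached any DOX library. Reads of Psmb5, Psmb6 and Psmb7 may be shared with the pseudogenes that GENCODE names after them, so small differences in these genes are uncertain.

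Psmb6, the caspase-like subunit, had 7.18, 6.99 and 7.14 log2 CPM in Art_shBCLAF1 against 6.31, 6.37 and 7.62 in Art, a change of 0.34 ± 0.36 (adjusted p = 0.466). Art replicate 3 was again above all others, and without it the change was 0.76 (adjusted p = 1.66e-06). It had 6.95, 6.89 and 6.88 log2 CPM in DOX_shBCLAF1, 6.71, 6.53 and 6.51 in DOX and 6.49, 6.47 and 6.45 in NoDOX, and rose by 0.32 ± 0.07 in DOX_shBCLAF1 against DOX (adjusted p = 0.0113). Psmb7, the trypsin-like subunit, had 7.19, 6.84 and 7.02 log2 CPM in Art_shBCLAF1 and 5.66, 5.81 and 5.68 in Art, and rose by 1.30 ± 0.13 (2.46-fold, adjusted p = 0.000607). In the Rag-deficient cells it had 6.74, 6.68 and 6.63 in DOX_shBCLAF1, 6.75, 6.21 and 6.41 in DOX and 5.96, 6.06 and 5.92 in NoDOX, and the change in DOX_shBCLAF1 against DOX was 0.23 ± 0.13 (adjusted p = 0.18). Psmb7 was the catalytic gene whose 3 Art libraries were closest together and the catalytic gene that passed the interaction test.

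**Figure D4:**
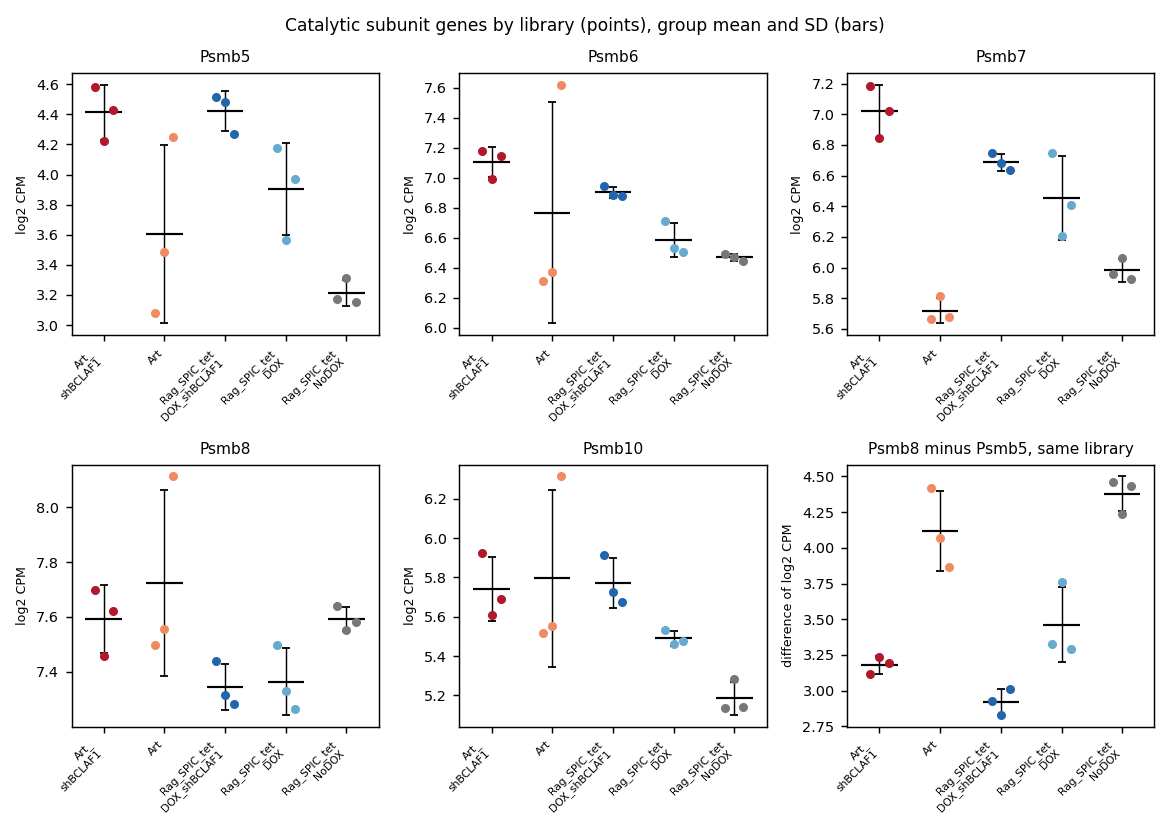
Log2 CPM (y axis) of the constitutive catalytic genes Psmb5, Psmb6 and Psmb7 and the immune catalytic genes Psmb8 and Psmb10 in each library, and Psmb8 minus Psmb5 within each library; points are libraries, lines and bars are the mean and SD of 3. Psmb8 overlaps across the shBCLAF1 comparisons, whereas its difference from Psmb5 is lower in both shBCLAF1 groups than in their counterparts.

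The immune subunit gene Psmb8, which takes the place of Psmb5, did not pass in any of the 4 comparisons with all libraries. It had 7.70, 7.46 and 7.62 log2 CPM in Art_shBCLAF1 and 7.50, 7.56 and 8.11 in Art, where replicate 3 was the highest library (-0.13 ± 0.19, adjusted p = 0.603). In the Rag-deficient cells it had 7.44, 7.31 and 7.28 in DOX_shBCLAF1, 7.50, 7.33 and 7.26 in DOX and 7.64, 7.55 and 7.58 in NoDOX. The change in DOX_shBCLAF1 against DOX was -0.02 ± 0.08 (adjusted p = 0.857), and in DOX against NoDOX it was -0.23 ± 0.08 (adjusted p = 0.0996), with all DOX libraries below all NoDOX libraries. The authors' deposited table for DOX and NoDOX lists Psmb8 with a change of -0.31 in DOX, so it passed the authors' adjusted p. Without DOX replicate 1, where 1 of the 47 genes fell, Psmb8 had the lowest estimate, -0.29. A p that misses the threshold does not show that Psmb8 was equal between groups.

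Psmb10, which takes the place of Psmb7, had 5.92, 5.61 and 5.69 log2 CPM in Art_shBCLAF1 and 5.52, 5.55 and 6.31 in Art (-0.05 ± 0.24, adjusted p = 0.868). Art replicate 3 was the highest of these libraries, and the authors' deposited table gives 0.20 for Psmb10 in Art_shBCLAF1. In the Rag-deficient cells Psmb10 had 5.92, 5.72 and 5.67 in DOX_shBCLAF1, 5.53, 5.46 and 5.48 in DOX and 5.14, 5.28 and 5.14 in NoDOX. It rose in DOX_shBCLAF1 against DOX by 0.28 ± 0.08 (adjusted p = 0.0264). That call was lost when libraries were centred on their median and in 1 fit of all 15 libraries. It was also lost without DOX replicate 3 and without DOX_shBCLAF1 replicate 1 or 2. Psmb10 was higher and Psmb8 lower in every DOX library than in every NoDOX library. Within a library, Psmb8 minus Psmb5 was 3.11, 3.23 and 3.19 on the log2 CPM scale in Art_shBCLAF1 and 4.42, 4.07 and 3.86 in Art. It was 2.92, 2.83 and 3.01 in DOX_shBCLAF1, 3.32, 3.76 and 3.29 in DOX and 4.46, 4.24 and 4.43 in NoDOX. These differences are not adjusted for transcript length, so only their change between groups can be read: Psmb8 minus Psmb5 was lower in every shBCLAF1 library than in any library of its counterpart, and library scaling does not enter it. Psmb10 minus Psmb7 was -1.26, -1.24 and -1.33 in Art_shBCLAF1 and -0.15, -0.26 and 0.64 in Art, with no overlap. In the Rag-deficient cells it was -0.83, -0.96 and -0.96 in DOX_shBCLAF1 and -1.21, -0.75 and -0.93 in DOX, and these groups overlapped. Psmb10 minus Psmb6 was -1.25, -1.38 and -1.45 in Art_shBCLAF1 and -0.79, -0.82 and -1.30 in Art. These groups overlapped only through Art replicate 3, at -1.30. In the Rag-deficient cells this difference was -1.03, -1.16 and -1.21 in DOX_shBCLAF1 and -1.18, -1.07 and -1.03 in DOX, and these groups overlapped.

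The activator genes split by type. Psme1 and Psme2 encode the interferon-inducible PA28 ring that opens the core for peptides. Psme1 had 7.42, 7.20 and 7.34 log2 CPM in Art_shBCLAF1 against 6.54, 6.56 and 7.01 in Art (0.61 ± 0.16, adjusted p = 0.0216). In DOX_shBCLAF1 it had 7.13, 7.12 and 7.17 against 7.01, 6.53 and 6.72 in DOX (0.39 ± 0.12, adjusted p = 0.0348) and 6.58, 6.65 and 6.68 in NoDOX, so it rose with the hairpin label in both cell types. The call in DOX_shBCLAF1 was lost without DOX replicate 3 and without any 1 of the DOX_shBCLAF1 libraries. The call in Art_shBCLAF1 was lost without Art replicate 1 or 2, or without Art_shBCLAF1 replicate 1 or 3. Psme2 had 4.87, 4.56 and 4.70 log2 CPM in Art_shBCLAF1 and 4.12, 4.14 and 3.09 in Art (0.92 ± 0.31, adjusted p = 0.0465). It had 4.65, 4.55 and 4.44 in DOX_shBCLAF1, 4.24, 3.88 and 3.92 in DOX and 3.76, 3.87 and 4.09 in NoDOX, and rose by 0.53 ± 0.12 in DOX_shBCLAF1 against DOX (adjusted p = 0.0117). Both calls in Art_shBCLAF1 were lost on centring. Psme2b is a near-identical copy of Psme2 and they can share reads, so both are uncertain; Psme2b had 0.45, 0.39 and 1.11 log2 CPM in Art_shBCLAF1 and 1.36, 1.66 and -1.22 in Art. In the Rag-deficient cells Psme2b had 1.29, 1.38 and 1.42 in DOX_shBCLAF1, 0.80, 0.68 and 0.68 in DOX and 0.21, 1.45 and 0.82 in NoDOX.

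Psme3, the nuclear activator subunit PA28 gamma, showed the largest activator change. It had 8.68, 8.61 and 8.63 log2 CPM in Art_shBCLAF1 against 7.39, 7.28 and 6.87 in Art, 1.46 ± 0.16 on the log2 scale (2.75-fold, adjusted p = 0.000807). It had 8.69, 8.71 and 8.81 in DOX_shBCLAF1 against 8.24, 7.56 and 7.89 in DOX (0.84 ± 0.16, 1.79-fold, adjusted p = 0.00666). NoDOX libraries had 7.35, 7.31 and 7.31, below all DOX libraries, though DOX against NoDOX did not pass (0.57 ± 0.16, adjusted p = 0.0549). Psme4, the large activator PA200, had 7.19, 7.19 and 7.23 log2 CPM in Art_shBCLAF1 and 7.57, 7.57 and 6.24 in Art. Its change was 0.07 ± 0.37 with replicate 3 (adjusted p = 0.882) and -0.37 without it (adjusted p = 8.43e-05), and the authors' deposited table gives -0.35 for Art_shBCLAF1. It had 7.26, 7.32 and 7.26 in DOX_shBCLAF1, 7.34, 7.64 and 7.58 in DOX and 7.13, 7.39 and 7.29 in NoDOX (-0.24 ± 0.09 in DOX_shBCLAF1 against DOX, adjusted p = 0.0565), every DOX_shBCLAF1 library being below every DOX library. Psmf1, known as the inhibitor PI31, passed in none of the 4 comparisons. It had 5.83, 5.78 and 5.77 log2 CPM in Art_shBCLAF1, 5.45, 5.47 and 5.72 in Art, 5.73, 5.74 and 5.84 in DOX_shBCLAF1, 5.75, 5.69 and 5.79 in DOX and 5.48, 5.60 and 5.62 in NoDOX, and the estimates were 0.24 ± 0.12 and 0.02 ± 0.06 for the hairpin label in Art and in DOX.

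**Figure D5:**
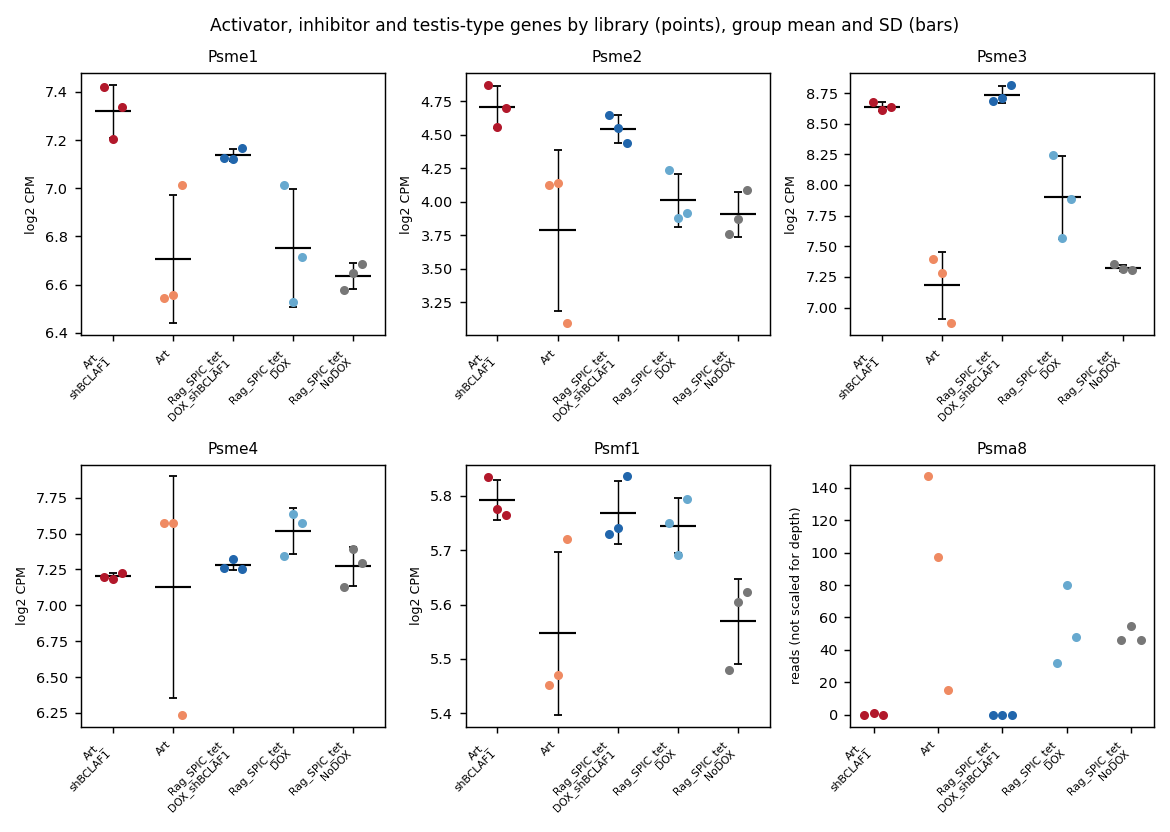
Log2 CPM (y axis) of the activator genes Psme1, Psme2, Psme3 and Psme4 and the inhibitor gene Psmf1 in each library, with the mean and SD of 3, and Psma8 as reads per library. Psme3 is at 8.61 or above in all 6 shBCLAF1 libraries and at 8.24 or below in the other 9, and Psma8 has at most 1 read in each shBCLAF1 library.

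Psma8, an alternative outer-ring subunit known from testis, where it stands in for Psma7, was at or near 0 reads in the libraries labelled shBCLAF1. Its reads numbered 0, 1 and 0 in Art_shBCLAF1 against 147, 97 and 15 in Art, and 0, 0 and 0 in DOX_shBCLAF1 against 32, 80 and 48 in DOX, with 46, 55 and 46 in NoDOX. With 0 reads over the 3 DOX_shBCLAF1 libraries and 160 over the 3 DOX libraries, its level was at least 60.4-fold lower in DOX_shBCLAF1, counting 3 reads over the group as the floor. With 1 read against 259, the ratio of Art over Art_shBCLAF1 was 318, with an exact 95% interval of 56.5 to 12594 that covers counting error only. Psma8 fell in both comparisons at limma's adjusted p (0.00022 in DOX_shBCLAF1 and 0.000389 in Art_shBCLAF1), the opposite direction to Psma7, which rose by 0.66 ± 0.17 and 1.35 ± 0.21. The Psma7 call in DOX_shBCLAF1 was lost without DOX replicate 3 and without DOX_shBCLAF1 replicate 1 or 2. Between the groups without the hairpin, Psma8 had 2.51, 2.50 and 1.41 log2 CPM in Art and 0.49, 1.86 and 1.17 in DOX. It had 1.39, 1.62 and 1.38 in NoDOX, and neither difference from NoDOX passed with all libraries. Without Art replicate 3 the Psma8 estimate in Art against NoDOX was 1.04, the highest of the 47 genes. The authors' deposited table gives 1.07 for Psma8 in Art against NoDOX.

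Chaperones build the particle from its subunits. Psmg1, which pairs with Psmg2 on the outer ring, had 5.01, 4.72 and 4.82 log2 CPM in Art_shBCLAF1 against 2.70, 2.74 and 3.47 in Art (1.88 ± 0.24, 3.67-fold, adjusted p = 0.00141), the highest change of the 47 genes in that comparison. It had 4.72, 4.58 and 4.62 in DOX_shBCLAF1 and 4.34, 2.97 and 3.78 in DOX (0.95 ± 0.32, adjusted p = 0.0441), the DOX libraries spanning over 1 log2 unit. All 4 core chaperones rose in DOX_shBCLAF1, by 0.65 (Psmg3) to 0.99 (Psmg4). The Psmg1 and Psmg2 calls there were lost without DOX replicate 3 and without any 1 of the DOX_shBCLAF1 libraries. Those of Psmg3 and Psmg4 were lost in 1 fit of all 15 libraries. In Art_shBCLAF1 2 of 4 rose, Psmg1 and Psmg2, and the lowest was Psmg4, 0.37 ± 0.61, with 4.10, 3.71 and 3.79 log2 CPM in Art_shBCLAF1 against 2.73, 2.77 and 4.98 in Art; without Art replicate 3 it was at 1.12 (adjusted p = 1.66e-05). The chaperones of the cap differed among themselves. Psmd5 rose in both, by 0.85 ± 0.12 in Art_shBCLAF1 (adjusted p = 0.00239) and 0.48 ± 0.12 in DOX_shBCLAF1 (adjusted p = 0.0137). Psmd10, known as gankyrin, had 4.81, 4.75 and 4.70 log2 CPM in DOX_shBCLAF1 against 5.14 ± 0.18 (SD, n = 3) in DOX and fell by 0.39 ± 0.10 (adjusted p = 0.0201), a call that each DOX_shBCLAF1 library decided. In Art_shBCLAF1 it had 5.22, 5.05 and 5.10 against 4.86, 4.83 and 5.37 in Art (0.10 ± 0.18, adjusted p = 0.667). Psmd9 passed in none of the 4 comparisons.

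Genes that control or serve the proteasome were counted by lists. Of 9 regulators of subunit genes, 2 rose and 2 fell in Art_shBCLAF1, and 4 rose and 1 fell in DOX_shBCLAF1. For these lists too, 25.0% of all genes rose and 24.1% fell in Art_shBCLAF1, 28.5% and 25.1% in DOX_shBCLAF1. Nfe2l1, the factor that induces subunit genes, was at 7.57 ± 0.03 log2 CPM in Art_shBCLAF1 and 7.14 ± 0.06 in Art (SD, n = 3 each) and rose by 0.43 ± 0.10 (adjusted p = 0.014), whereas in DOX_shBCLAF1 against DOX it was at -0.02 ± 0.05 (adjusted p = 0.794). Ngly1, the glycanase that activates the Nfe2l1 protein, rose by 1.92 ± 0.26 in Art_shBCLAF1 (adjusted p = 0.00174) and by 0.61 ± 0.12 in DOX_shBCLAF1 (adjusted p = 0.00776). Nfe2l2, the oxidative stress factor, fell by 0.88 ± 0.13 in DOX_shBCLAF1 (adjusted p = 0.0023) and was at -0.59 ± 0.27 in Art_shBCLAF1 (adjusted p = 0.12).

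Of 10 assembly and binding factors, 4 rose and 0 fell in Art_shBCLAF1, and 2 rose and 2 fell in DOX_shBCLAF1; without Art replicate 3 the first counts were 7 and 2. Pomp, the maturation factor of the core, rose by 1.06 ± 0.14 in Art_shBCLAF1 (adjusted p = 0.00154) and was at 0.24 ± 0.12 in DOX_shBCLAF1 (adjusted p = 0.137). The cap-bound proteins Txnl1 and Uchl5 rose in Art_shBCLAF1 by 1.72 and 1.63. Of the subunits outside the naming rule, the ubiquitin receptor gene Adrm1 rose in DOX_shBCLAF1 by 0.72 ± 0.08 (adjusted p = 0.000962) and was at -0.33 ± 0.28 in Art_shBCLAF1 (adjusted p = 0.365). Of 14 genes for ubiquitin supply, shuttle receptors and the VCP unfoldase, 7 rose and 0 fell in Art_shBCLAF1, and 6 rose and 2 fell in DOX_shBCLAF1. The ubiquitin fusion gene Rps27a led in DOX_shBCLAF1 with 1.56 ± 0.19 (adjusted p = 0.00139). In DOX against NoDOX the highest called genes of these lists were Ube3c (0.51), Vcp (0.37) and Uba1 (0.34), and in Art against NoDOX 1 gene, Ubqln2, fell, by 0.71. By the interaction test, the hairpin-label effect was higher in Art than in DOX most for Ngly1 (1.32, adjusted p = 0.00846), Uchl5 (1.19) and Txnl1 (1.14), and it was lower for Mafk (-1.46, adjusted p = 0.00121) and Irf1 (-1.29).

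Of the 12 class I peptide-loading genes, which use the peptides the proteasome makes, 4 rose and 7 fell in Art_shBCLAF1, and 3 rose and 6 fell in DOX_shBCLAF1; in DOX against NoDOX 1 rose and 3 fell (3.16% and 8.67% of all genes). Those that rose with the hairpin label were endoplasmic reticulum chaperones and the trimming peptidase Erap1; those that fell included the class I heavy chain H2-K1, with log2 fold changes of -2.03 in Art_shBCLAF1 and -0.98 in DOX_shBCLAF1, and H2-D1, with -1.55 and -0.54. Tap1, a subunit of the peptide transporter, is the neighbour of Psmb8 and Psmb9 in the RefSeq annotation. It was at 8.32 ± 0.02 log2 CPM in Art_shBCLAF1 and 9.04 ± 0.02 in Art, and fell by 0.72 ± 0.10 (adjusted p = 0.00182). It was at 8.06 ± 0.03 in DOX_shBCLAF1, 8.66 ± 0.18 in DOX and 9.10 ± 0.06 in NoDOX, and fell in DOX_shBCLAF1 by 0.60 ± 0.10 (adjusted p = 0.0033) and in DOX by 0.44 ± 0.10 (adjusted p = 0.0396). Psmb8 beside it did not pass in the same comparisons. Tap2, the other subunit, also fell in DOX against NoDOX, by 0.43 (adjusted p = 0.0274), and the difference between Psmb8 and Tap1 was not tested.

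Nlrc5, the activator of class I genes, fell in Art_shBCLAF1 by 0.86 ± 0.17 (adjusted p = 0.00752) and in DOX against NoDOX by 0.57 ± 0.12 (adjusted p = 0.0315), and was at 0.08 ± 0.12 in DOX_shBCLAF1 against DOX (adjusted p = 0.604). Of 10 interferon regulators of the immune subunits, 0 rose and 2 fell in Art_shBCLAF1, and 1 rose and 5 fell in DOX_shBCLAF1; without Art replicate 3, 9 fell in Art_shBCLAF1 (39.5% of all genes). Irf1, an interferon-induced factor, fell in Art_shBCLAF1 by 1.53 ± 0.32 (adjusted p = 0.00863) and was at -0.24 ± 0.11 in DOX_shBCLAF1 (adjusted p = 0.108). The kinase gene Jak2 fell in DOX_shBCLAF1 by 0.91 ± 0.12 (adjusted p = 0.00159).

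The promoters of the genes were read from RefSeq (GRCm38.p6), since most core and cap genes were higher in the shBCLAF1 groups. A window of 300 bases, 250 before and 50 after the start site, was found for 39 of the 47 genes and for 27025 genes in all, and 5 motifs were searched on both strands. The antioxidant response core TGACNNNGC, which Nfe2l1 and Nfe2l2 bind, was in 6 of 39 windows (15.4%, against 12.5% of all windows), those of Psmb5, Psmb6, Psmc6, Psmd9, Psmd12 and Psme4. The ETS core GGAAGTG, of the family that holds PU.1 and SPIC, was in 8 (20.5% against 11.2%). The interferon response motif, a pair of GAAA runs 2 bases apart, was in 5 (12.8% against 3.49%), Psme1 among them and Psmb8 and Psmb10 not. The STAT motif TTCNNNGAA was in 3 (7.69% against 8.47%), Psmb8, Psmd2 and Psmg1, and the E-box CACGTG, which Myc can bind, was in 4 (10.3% against 7.24%), Psma4, Psmb10, Psmd9 and Psme3. No overlap between motifs was counted, the shares have no test, and a match is a description of letters, not of a bound site. The 250 bases before the start site are given 5′ to 3′ on the gene's strand for 4 genes that stand for the constitutive core, the nuclear activator, the outer ring and the immune core, with the motif in capitals (the antioxidant response core 47 bases upstream in Psmb5, the E-box 44 upstream in Psme3, the ETS core on the opposite strand 170 upstream in Psma2, and the STAT motif 97 upstream in Psmb8).
Psmb5 (chr14:54617996-54618245, minus strand): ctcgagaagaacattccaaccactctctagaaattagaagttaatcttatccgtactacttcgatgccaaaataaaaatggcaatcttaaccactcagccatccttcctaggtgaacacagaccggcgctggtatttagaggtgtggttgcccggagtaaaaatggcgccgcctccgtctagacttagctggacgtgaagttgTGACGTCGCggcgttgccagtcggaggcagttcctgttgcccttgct
Psme3 (chr11:101315963-101316212, plus strand): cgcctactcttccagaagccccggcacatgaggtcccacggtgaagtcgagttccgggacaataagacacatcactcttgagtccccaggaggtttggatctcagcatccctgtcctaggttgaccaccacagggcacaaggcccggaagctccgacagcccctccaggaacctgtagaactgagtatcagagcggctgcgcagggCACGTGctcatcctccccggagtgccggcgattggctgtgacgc
Psma2 (chr13:14612992-14613241, plus strand): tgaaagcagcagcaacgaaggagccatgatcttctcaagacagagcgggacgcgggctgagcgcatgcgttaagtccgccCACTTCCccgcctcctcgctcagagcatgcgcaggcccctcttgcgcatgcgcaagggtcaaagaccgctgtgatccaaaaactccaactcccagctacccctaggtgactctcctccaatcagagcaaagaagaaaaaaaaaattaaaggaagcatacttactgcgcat
Psmb8 (chr17:34197945-34198194, plus strand): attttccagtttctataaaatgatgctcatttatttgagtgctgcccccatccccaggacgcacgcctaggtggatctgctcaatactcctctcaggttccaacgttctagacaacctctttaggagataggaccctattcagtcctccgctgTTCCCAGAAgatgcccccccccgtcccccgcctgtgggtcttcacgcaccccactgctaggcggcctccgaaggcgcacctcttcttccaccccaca
The first 3 of these genes rose with the hairpin label in at least 1 cell type, Psmb5 in DOX_shBCLAF1, Psme3 in both and Psma2 in Art_shBCLAF1 (0.95 ± 0.12, adjusted p = 0.00142), and Psmb8 in neither. The Psmb5 call was lost without any 1 of the DOX_shBCLAF1 libraries.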

How the data were processed

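Total RNA of 15 libraries in 5 groups of 3 was measured by paired-end RNA sequencing. Per the submitters' processing notes, Subread, featureCounts 1.4.5, edgeR and limma were used with build mm9, with no role given for each. The authors deposited 4 tables of log2 CPM values with 0.5 reads added; 100% of values under 1000 reads returned to whole reads within 0.05. The tables also hold the authors' log2 fold changes and adjusted p-values, and list only genes with an adjusted p of at most 0.0499. The authors' deposited tables list 47, 45, 34 and 19 of the 48 matching names (Art_shBCLAF1 and Art, DOX_shBCLAF1 and DOX, DOX and NoDOX, Art and NoDOX). The Art replicate 3 column differs by 1 character from its label.

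From these values limma 3.58.1 (R 4.3.3), with a mean-variance trend, was fitted to the 6 libraries of each comparison (12 for the interaction) over 11551 genes, with Benjamini-Hochberg adjustment and two-sided tests; it was tested on simulated data. A fold change is a difference of mean log2 CPM. Effective library sizes of 5.81e+06 to 2.71e+07 reads set the counting precision. No source used here says that a group's libraries are separate cultures, so the spread behind each p-value may be technical. Alternatives were median centring, a filter at a mean log2 CPM of 1, log2(CPM + 1), array weights, 1 fit of all 15 libraries, no trend, a replicate block and leaving out each library. Catalytic, immune, testis, activator and inhibitor genes were named one by one, in other classes the highest and lowest change, and of the pathway lists, the 3 highest and lowest called genes and 6 fixed genes were named, except some that are not reported here. Psma2, Psma7, Psmg2, Psmc1, H2-D1, Erap1 and the 9 interaction genes were named, and the promoters shown and the E-box chosen, after their values were seen. The members and lists were chosen with earlier results of these data known.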

Additional observations from a re-analysis of the deposited data

Results flagged for a closer look

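In 9 of the 47 genes (19.1%) the hairpin-label effect differed between the cell types by the interaction test (limma, adjusted p below 0.05). Each time it was higher in Art (Art_shBCLAF1 minus Art) than in DOX (DOX_shBCLAF1 minus DOX). Of all genes 14.3% had a higher effect in Art and 17.0% a lower one, 31.3% in all. A differing effect was therefore not particular to the proteasome genes. The differences on the log2 scale were 1.27 for Psma1, 0.64 for Psma2, 0.85 for Psma5 and 0.78 for Psma6 in the outer ring. They were 0.73 for Psmb4 and 1.07 for Psmb7 in the inner ring, and 0.64 for Psmd1, 0.50 for Psmd11 and 0.85 for Psmd14 in the cap. For Psma1 the effects were 1.40 ± 0.22 in Art and 0.13 ± 0.12 in DOX (SE), and for Psmb7 1.30 ± 0.13 and 0.23 ± 0.13. All 9 stayed called without Art replicate 3; 4 and 5 did without Art_shBCLAF1 replicates 1 and 3, Psma1, Psmb4, Psmb7 and Psmd11 in each. With 3 libraries a group, no single library was tested as an outlier.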

How the results depend on the processing

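Limits: the tables hold only genes the authors called, Art replicate 3 is shallow and stands apart, and the DOX libraries are spread, so counts in every comparison move with single libraries. Over leave-one-out fits the members called ranged from 0 to 13 in Art against NoDOX, from 0 to 31 in DOX against NoDOX, from 14 to 42 in DOX_shBCLAF1 against DOX, from 19 to 45 in Art_shBCLAF1 against Art and from 4 to 27 in the interaction; all genes called ranged from 0 to 5473, 12 to 4569, 3945 to 7576, 3740 to 9252 and 2674 to 6286. Array weights called 19, 36, 44, 46 and 41 members and 6547, 8589, 10078, 9839 and 9159 genes, but some of these fits stopped before converging. Fitting all 15 libraries at once called 2 members and 1957 genes in Art against NoDOX and 18 members and 4593 genes in DOX_shBCLAF1 against DOX. Without a trend 0 members and 1022 genes passed in DOX against NoDOX.

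Directions that reversed, in genes not called with all libraries unweighted, follow. Under array weights they were Psmd3 -0.13, Psme2b 0.65 and Psme4 0.28 in Art against NoDOX, and Psmb1 -0.16 in DOX against NoDOX. In Art_shBCLAF1 against Art they were Psmb10 0.19, Psmd4 0.44, Psme2b -0.53 and Psme4 -0.35. In the interaction they were Psma3 -0.21, Psmb3 0.51, Psmc3 0.46, Psmc4 0.27, Psmc5 0.47, Psmd4 0.27 and Psmd9 0.21. Leaving out Art replicate 3 also reversed Psme4, Psmd4, Psme2b and Psmc3: over the leave-one-out fits Psme4 ranged from -0.37 to 0.30 in Art against NoDOX and from -0.37 to 0.30 in Art_shBCLAF1 against Art, Psmd4 from -0.22 to 0.41 and Psme2b from -0.86 to 0.58 in Art_shBCLAF1 against Art, and Psmc3 from -0.29 to 0.40 in the interaction. The cause was not tested.

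The replicate numbers are shared between groups, and no label says that they pair libraries. Over all genes, deviations from the group means correlated at -0.23 to 0.20 between same-numbered libraries. Between libraries of different number they correlated at -0.26 to 0.27. With means of 3 libraries, and outlying libraries among them, this check cannot decide whether libraries were paired. With the replicate block 0 members and 0 genes passed in Art against NoDOX, 0 members and 150 genes in DOX against NoDOX, and 28, 26 and 9 members and 5171, 4779 and 3395 genes in DOX_shBCLAF1 against DOX, Art_shBCLAF1 against Art and the interaction. All 9 interaction calls were kept under centring, log2(CPM + 1), the filter, no trend and the block.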
